A study of Mus musculus with 2 samples.

Results

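Malat1 and Neat1 are long noncoding RNAs that stay in the nucleus, and the genes Sfpq, Nono, Pspc1 and Rbm14 encode proteins of the paraspeckle, the nuclear body that Neat1 builds. These 6 genes were found by their symbols in the transcript tables and followed by gene identifier through the gene and transcript tables, 6 of 55536 genes in all. They were measured in the nuclear RNA, labelled nucleoplasmic, of bone-marrow-derived macrophages of the mouse strain C57BL/6J, in 2 total RNA libraries depleted of ribosomal RNA. Both libraries come from 1 condition: Lipid A, the part of lipopolysaccharide that activates TLR4, was given at 100 ng/ml for 12 h, washed out for 12 h and given again at 100 ng/ml for 10 min. There was thus no second condition to compare with, and neither age nor sex was recorded. The libraries are biological replicates 1 and 2, made from 1 µg and 500 ng of nucleic acid, and they share a donor identifier. The labels do not say whether they were separate cultures or animals, so their spread may be partly technical.

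As background, Malat1 gathers at nuclear speckles, the bodies rich in splicing factors, and Neat1 lies beside it on the same chromosome. Neat1 makes a short polyadenylated transcript and a long one, and only the long one can scaffold a paraspeckle. SFPQ, NONO and PSPC1 form dimers with each other as members of the DBHS family of RNA-binding proteins, while RBM14 helps the particles come together. Malat1 and long Neat1 carry no ordinary poly(A) tail: RNase P cuts before a tRNA-like fold, and a triple helix of U-rich and A-rich stretches protects the new end.

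Expected counts on genes, which are estimated reads that need not be whole, summed to 24444219 in replicate 1 and 18051097 in replicate 2. Macrophage markers were present in full (7 of 7 detected, median TPM 172 and 233 in replicates 1 and 2), and of 8 markers of other lineages only the endothelial gene Pecam1 was detected, at 1.34 and 1.04 TPM. TPM, a share of all transcripts, is a level per length. Detection needed at least 1 TPM and 10 expected counts in each library, which 42.9% of protein-coding genes met. The macrophage markers all had lower normalised counts in replicate 2 (median log2 ratio over replicate 1, -0.56), and the part of this in the values below was not tested.

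All 6 genes were detected, in a set of libraries where 42.9% of protein-coding genes and 3.69% of lincRNA genes were. Malat1 stood first by counts among all genes in both libraries. It held 2634838 expected counts in replicate 1 and 1760388 in replicate 2, which are 10.8% and 9.75% of all gene counts (exact binomial 95% intervals 10.77% to 10.79% and 9.74% to 9.77%, covering counting error only). Neat1 held 115396 and 97620 counts, or 0.472% and 0.541%, and ranked 13th and 11th among all genes. Malat1 made up 84.8% and 84.6% of the counts on all lincRNA genes, and Neat1 a further 3.71% and 4.69%. The protein genes were far below both: the 4 together held 0.0306% of gene counts in replicate 1 and 0.0386% in replicate 2. From bulk RNA, a change in the share of cells making a transcript and a change per cell cannot be told apart.

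On the per-length scale Malat1 had 12920 TPM in replicate 1 and 19978 TPM in replicate 2 (mean 16449 ± 4991, SD, n = 2). Neat1 had 756 and 951 TPM (854 ± 138). Sfpq had 43.4 and 68.8 TPM (56.1 ± 17.9), and Nono 41.8 and 41.6 TPM (41.7 ± 0.141). Pspc1 had 10.9 and 13.7 TPM (12.3 ± 1.99), and Rbm14 was lowest with 5.81 and 7.71 TPM (6.76 ± 1.34). The order Malat1, Neat1, Sfpq, Nono, Pspc1, Rbm14 held in both libraries and in both deposited quantifications, the second of which was made directly from the reads and an index and is called the other quantification below. By the TPM of the first quantification every gene in that order had both of its libraries above both libraries of the next. In the other quantification this failed for Sfpq over Nono, where Sfpq in replicate 1 (20.4 TPM) lay below Nono in replicate 2 (24.7 TPM). The step between Sfpq and Nono was the smallest, 1.04-fold in replicate 1 and 1.65-fold in replicate 2, and the difference of their means was smaller than the SD of Sfpq. Malat1 exceeded Neat1 by 17.1-fold and 20.997-fold, and Neat1 exceeded Sfpq by 17.4-fold and 13.8-fold. Exact tests over 2 libraries cannot go below p = 0.5, so these orders are descriptions.

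**Figure D1:**
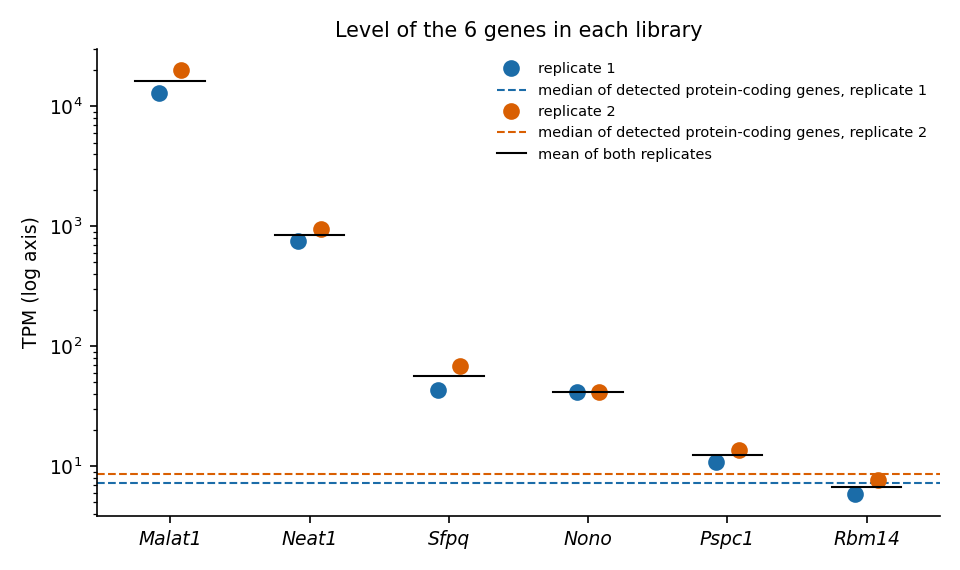
TPM (log axis) of the 6 genes in replicate 1 and replicate 2, with a line at their mean; dashed lines mark the median TPM of detected protein-coding genes in each library. Malat1 and Neat1 lie far above the 4 protein genes, and only Rbm14, at 5.81 and 7.71 TPM, lies below the medians of 7.30 and 8.56 TPM.

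Among detected protein-coding genes, Sfpq lay above 92.3% of genes in replicate 1 and 95.8% in replicate 2. Nono, the usual dimer partner of SFPQ, lay above 91.9% and 91.3%. Pspc1 lay near the upper middle, above 63.2% and 65.8%, and Rbm14 just under the middle, above 41.8% and 46.0%. In mean TPM the genes next to Sfpq were Tpp1 (56.2) above and Clec4e (56.1) below, and next to Nono were Hmga1 (41.9) and Tmem256 (41.7). Pspc1 stood between Hadha and Marc2, all 3 at 12.3 TPM, and Rbm14 between Micu2 and Fanca, all 3 at 6.76 TPM. Among lincRNA genes Malat1 was second in mean TPM to Rmrp, the RNA of the RNase MRP enzyme, at 16556 ± 10760 TPM (24165 in replicate 1 and 8948 in replicate 2). Rmrp has an effective length, the positions a fragment can start from, of only 76.6 bases, and in counts it held 0.301% of the gene total in replicate 1 and 0.0955% in replicate 2. A ribozyme entry of the same name covers nearly the same bases with 190022 and 125953 counts, so the division of reads between the entries is uncertain. Neat1 was the third by TPM, ahead of Gm42418 at 554 TPM and Gm26917 at 540 TPM. By mean counts the order was Malat1, Neat1, Gm26917, Xist and Rmrp, but in replicate 1 Rmrp (73494 counts) came above Gm26917 (73359) and Xist (48002).

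Malat1 lies on chr19:5795690-5802672 (mm10, minus strand) and has 4 annotated transcripts. Malat1-201 is the unspliced transcript of 6983 bases. Malat1-203 has 485 bases in 2 exons near the start of the gene, and Malat1-204 (656 bases) and Malat1-202 (556 bases) are spliced pieces of its end. Every exonic base of the short transcripts also lies in Malat1-201, so only the splice junctions set them apart. The sequences at the Malat1-203 junction show what separates it from Malat1-201. The 2nd exon of Malat1-203 is in capitals, the rest in lower case, and the intron of 271 bases starts with gt and ends with ag. The junction joins chr19:5802238-5802262 to chr19:5801942-5801966, and the unspliced stretches are chr19:5802213-5802262 and chr19:5801942-5801991, all on the minus strand.
Malat1-203 junction: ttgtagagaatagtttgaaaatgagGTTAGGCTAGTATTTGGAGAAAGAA
Malat1-201 across the donor: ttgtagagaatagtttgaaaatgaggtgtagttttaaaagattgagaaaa
Malat1-201 across the acceptor: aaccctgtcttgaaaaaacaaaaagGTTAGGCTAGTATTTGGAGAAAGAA

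Nearly all Malat1 reads were assigned to Malat1-201, which took 98.3% of the gene's counts in replicate 1 and 94.8% in replicate 2. Its own level was 9649 and 8896 TPM (9273 ± 532), and 3096 and 4151 TPM in the other quantification. By normalised counts its log2 ratio was -0.36. Malat1-203 differed much more: it was assigned 20883 counts in replicate 1 and 65478 in replicate 2, with an SD from read assignment of 401 and 320 counts. On the TPM scale, where a short transcript weighs more per read, Malat1-203 had 1955 and 8938 TPM and thus 15.1% and 44.7% of the gene's TPM. Malat1-201 had 74.7% and 44.5%, Malat1-204 10.2% and 10.7%, and Malat1-202 0.01% in each library. The share of TPM on Malat1-203 therefore has a wide spread (29.9% ± 20.9), while Malat1-204 kept to 10.5% ± 0.382.

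The level of the whole gene differed between libraries as well, and how far this split bears on it was not tested. The effective length that the authors' tables give for Malat1 was 5139 bases in replicate 1 and 3176 bases in replicate 2, a mean over transcripts weighted by their share. Malat1's TPM was 1.55-fold higher in replicate 2, a log2 ratio of 0.63, although its share of counts was lower there. By normalised counts the log2 ratio was -0.31 (95% counting interval -0.310 to -0.305). TPM shifted the median protein-coding gene by 0.24 on the log2 scale, and relative to that shift Malat1's log2 TPM ratio was 0.39. With Malat1-203 left out, Malat1 had 10965 TPM in replicate 1 and 11040 TPM in replicate 2, a log2 ratio of 0.01. That ratio is not set relative to the shift of 0.24, and by normalised counts Malat1-201 had -0.36.

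The other quantification divided the same gene differently. It gave Malat1 5987 TPM in replicate 1 and 11289 TPM in replicate 2, and Neat1 264 and 477 TPM. It put 51.7% and 36.8% of Malat1's TPM on Malat1-201 in replicates 1 and 2, and 46.4% and 57.9% on Malat1-203. Malat1-204 took 1.89% and 5.32% there. By counts Malat1-201 again took nearly all, 96.4% and 92.6%. Malat1's log2 count ratio between libraries was -0.33 in this quantification against -0.31 in the first, while its share of gene counts was lower there, at 8.36% and 7.58%. The log2 ratio of Malat1-203 counts was 1.92 in the first quantification and 0.64 in the other, and that of Malat1-204 was 0.44 and 1.73.

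An annotated gene of the opposite strand lies inside Malat1. Gm37376, a TEC entry (a locus awaiting experimental support) on chr19:5801941-5802393 of the plus strand, covers bases 280 to 732 of Malat1 and overlaps both exons of Malat1-203. It held 0 and 3910 expected counts in replicates 1 and 2 in the first quantification, but 40242 and 45120 in the other. Strandedness is not given in the sources used here, so it is not known whether either quantification told reads of Gm37376 and of Malat1 apart by strand. Malat1-203 and Gm37376 together held 20883 and 69388 counts in the first quantification and 131461 and 195190 in the other. These sums are small beside Malat1-201, and adding Gm37376 to Malat1 left its share of gene counts at 10.8% and 9.77%. A short RNA inside Malat1, Gm27694, had 0 counts in each library, with an effective length of 0.

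**Figure D2:**
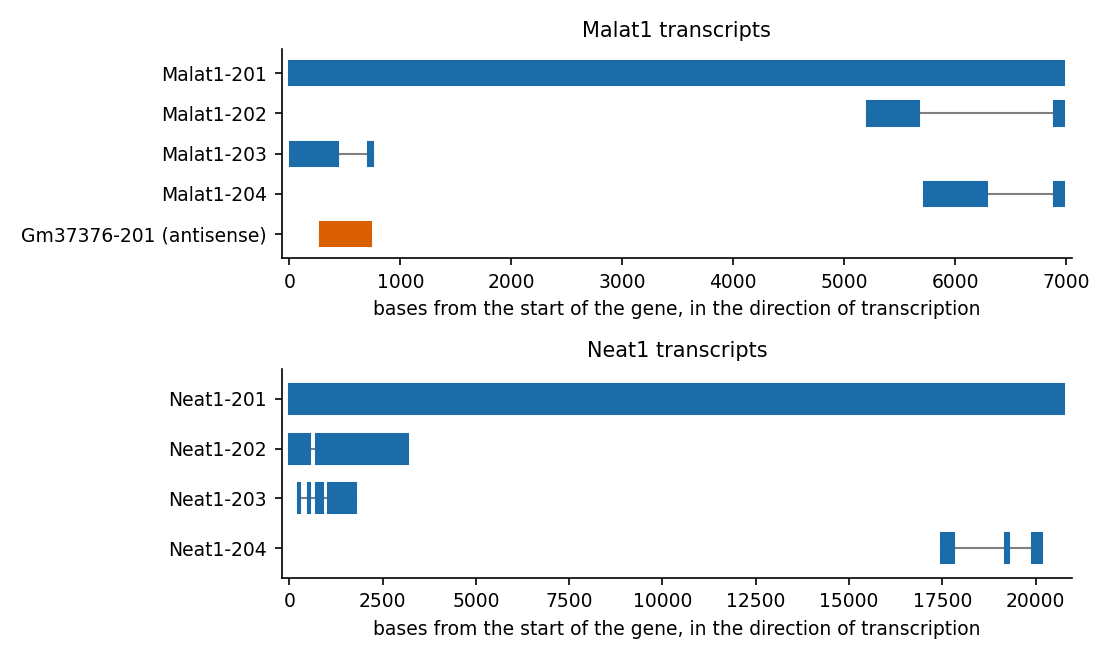
Annotated transcripts of Malat1 (top, with the antisense entry Gm37376 in orange) and Neat1 (bottom), plotted by distance in bases from the start of each gene; boxes are exons and lines introns. Malat1-203 and Neat1-202 lie at the start of their genes inside the unspliced Malat1-201 and Neat1-201, and Gm37376 covers bases 280 to 732 of Malat1.

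Neat1 lies on chr19:5824708-5845478 (mm10, minus strand). Its long transcript Neat1-201 has 20771 bases in 1 exon. The short Neat1-202 has 3004 bases in 2 exons over the first 3172 bases of the gene, Neat1-203 has 1030 bases in 4 exons within the same stretch, and Neat1-204 has 711 bases in 3 exons near the far end. As annotated, Neat1-202 and Neat1-201 are told apart by an intron of 166 bases, again from gt to ag, and by reads beyond the end of Neat1-202. No annotated Neat1 transcript is both short and unspliced. Intron reads of an unspliced short RNA, if present, would thus fit Neat1-201, and their part in its share was not tested. The 2nd exon of Neat1-202 is in capitals. The junction joins chr19:5844925-5844949 to chr19:5844734-5844758, and the unspliced stretches are chr19:5844900-5844949 and chr19:5844734-5844783, all on the minus strand.
Neat1-202 junction: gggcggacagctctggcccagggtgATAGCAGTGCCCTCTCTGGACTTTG
Neat1-201 across the donor: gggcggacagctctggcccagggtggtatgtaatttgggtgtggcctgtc
Neat1-201 across the acceptor: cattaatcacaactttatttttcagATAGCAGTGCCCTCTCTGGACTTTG

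By TPM as assigned, the short transcript dominated Neat1. Reads in the bases that both share can fit either transcript, and junction reads were not counted. Neat1-202 had 680 TPM in replicate 1 and 857 TPM in replicate 2, which are 89.8% and 90.1% of the gene's TPM. The long Neat1-201 had 48.2 and 53.6 TPM, or 6.37% and 5.63%. Neat1-203 took 3.58% and 4.04%, and Neat1-204 0.21% and 0.23%. The short transcript was 14.1-fold and 16.01-fold above the long one (15.1 ± 1.35), and 15.96-fold and 18.1-fold in the other quantification, so the libraries lie close here.

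In reads the long transcript weighed more, being longer. Neat1-201 was assigned 39314 and 30537 counts in replicates 1 and 2, 34.1% and 31.3% of the gene, with an SD from read assignment of 101 and 92.8 counts. Neat1-202 was assigned 75176 and 66191 counts, 65.1% and 67.8%. Per kilobase of effective length these are 1913 and 1486 counts for the long transcript and 26967 and 23786 counts for the short one. The other quantification gave the long transcript 5.68% and 5.02% of TPM and the short one 90.6% and 90.7%. Over both libraries and both quantifications the long transcript thus kept between 5.02% and 6.37% of Neat1's TPM, where Malat1-201 ranged between 36.8% and 74.7% of Malat1's.

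**Figure D3:**
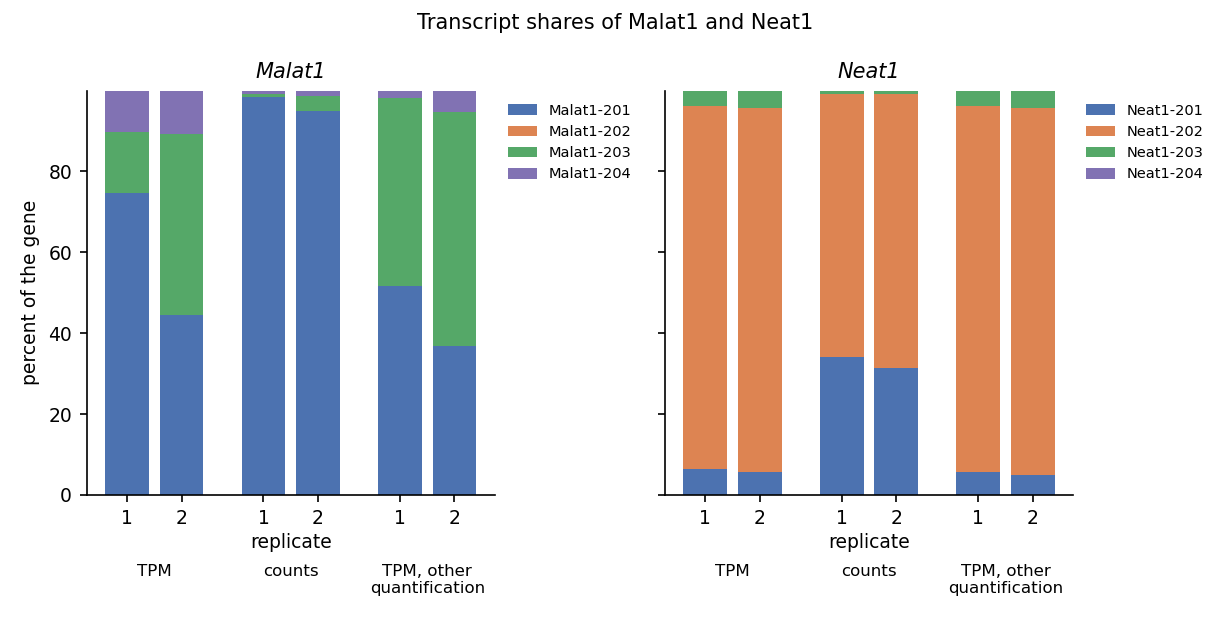
Percent of each gene's TPM, of its counts and of its TPM in the other quantification on each annotated transcript of Malat1 (left) and Neat1 (right), in replicates 1 and 2. Malat1-203 takes 15.1% and 44.7% of Malat1's TPM, while Neat1-202 takes 89.8% and 90.1% of Neat1's.

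Between these genes the comparison depends on the transcript. Malat1-201 was 14.2-fold and 10.4-fold above Neat1-202 by TPM in replicates 1 and 2, and 200-fold and 166-fold above the long Neat1-201. Of the protein genes, the coding transcript of Sfpq had 18.6 and 30.3 TPM, 0.385 and 0.566 of the level of Neat1-201. The RNA levels say nothing of the amounts of protein.

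The sequences where these RNAs end are shown because they differ in kind. The end of Neat1-202 has the poly(A) signal AATAAA, in capitals in the stretch of Neat1-201 on chr19:5842277-5842356, which runs 30 bases past that end. Malat1-201 as annotated also ends after this signal, on chr19:5795690-5795749. Of all annotated transcripts of at least 50 bases, 26.6% have AATAAA in their last 50 bases on the RNA strand, and of lincRNA transcripts 30.6%.
Neat1-201 across the end of Neat1-202: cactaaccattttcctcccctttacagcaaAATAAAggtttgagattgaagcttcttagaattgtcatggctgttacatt
Malat1-201 last bases: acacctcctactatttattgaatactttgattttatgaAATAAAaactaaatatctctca

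The last bases of Neat1-201 hold no AATAAA in the final 50. They hold instead TTTGCTTTT and AAAGCAAAA, which match a U-rich and an A-rich stretch and are in capitals on chr19:5824708-5824817. Neat1-201 ends exactly with the A-rich match. Malat1-201 has the same pair on chr19:5795982-5796091, ending 292 bases before its annotated end.
Malat1-201 up to the last A-rich match: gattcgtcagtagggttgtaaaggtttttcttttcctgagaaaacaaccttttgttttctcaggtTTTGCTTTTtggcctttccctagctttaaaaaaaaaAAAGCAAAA
Neat1-201 up to the last A-rich match: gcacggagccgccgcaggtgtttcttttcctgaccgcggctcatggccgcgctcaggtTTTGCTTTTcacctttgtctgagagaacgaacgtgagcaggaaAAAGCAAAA

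AAAGCAAAA was found in the last 400 bases of 0.793% and TTTGCTTTT of 0.858% of the 122312 transcripts at least that long, searching the RNA strand only. Both together were found in 11 of them, and of 8047 lincRNA transcripts in Malat1-201 and Neat1-201 alone. The stretches were picked beforehand from what is known of these RNAs, and the window takes in both matches. Their presence in Malat1-201 and Neat1-201 was thus fixed by the choice and is no support. A match of letters is a description and does not show where either RNA was cut in these cells.

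RNA levels before the start of Neat1 were low by comparison. The nearest protein-coding gene there, Frmd8, had 5.85 and 4.18 TPM in replicates 1 and 2. Frmd8os, which starts at base 5845623 on the plus strand and was chosen for mention after its values were seen, had 0 counts in each library. The other quantification gave it 27.9 and 24.7 counts. Annotated short RNAs inside Neat1 (Gm27533, Gm27505 and Gm28006) held under 1 count each in the first quantification. Gm27702, also chosen after its values were seen, abuts the end of Neat1 on chr19:5824652-5824707 and had 0 counts with an effective length of 0. Entries this short cannot be measured with these fragments, and their 0 does not show absence.

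None of the 6 genes was more than 2-fold apart between libraries by normalised counts, against 4.04% of the 11761 genes that averaged at least 50 counts. Neat1 had a log2 ratio, replicate 2 over replicate 1, of 0.03 (95% counting interval 0.02 to 0.05). Sfpq had the highest of the 6 at 0.44 (0.37 to 0.51), Pspc1 had 0.29 (0.15 to 0.42) and Rbm14 0.15 (-0.00083 to 0.303). Nono had -0.22 (-0.30 to -0.14). These counting intervals are far narrower than the spread of all genes (SD 0.50), and the middle 95% of protein-coding genes ran from -1.01 to 0.74. They cover counting error alone: the scaling moved the log2 ratios of Malat1 and Neat1 by more than their width.

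Of the 28 annotated transcripts of the 6 genes, 19 had a mean count of at least 50. Malat1-203 was the only 1 of these past 2-fold, against 13.0% of 23776 transcripts at that count, and its log2 ratio of 1.92 (1.90 to 1.95) lay above 98.4% of them. The call did not hold in the other quantification, where Malat1-203 had a log2 ratio of 0.64 and Malat1-204, at 1.73, was past 2-fold instead. Malat1-201 had -0.36, Neat1-201 -0.09 and Neat1-202 0.09.

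**Figure D4:**
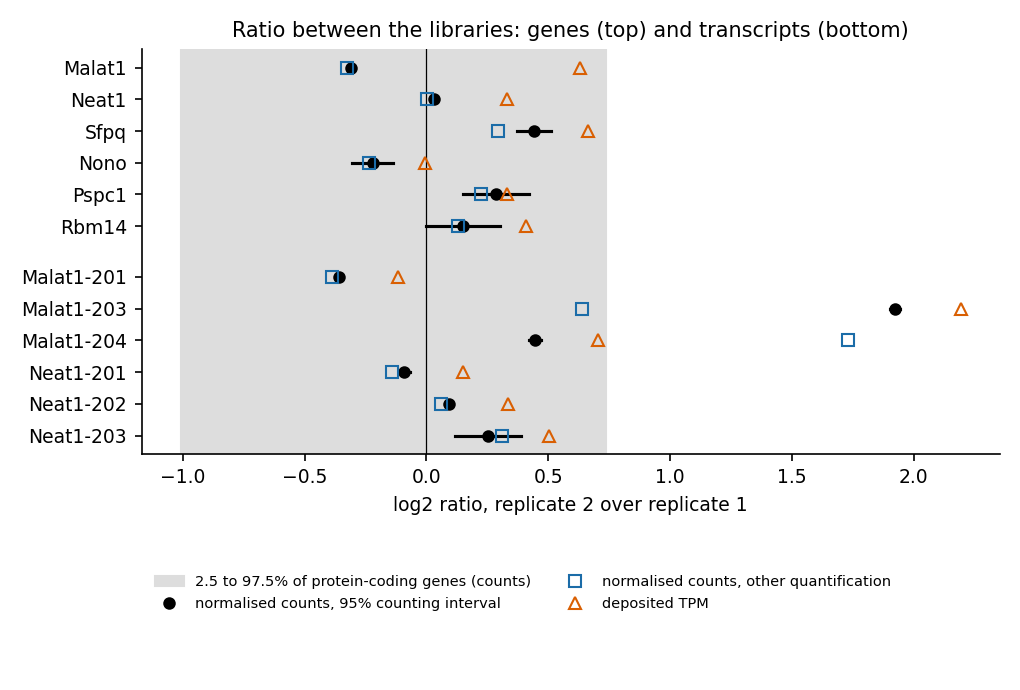
Log2 ratio of replicate 2 over replicate 1 for the 6 genes and for the Malat1 and Neat1 transcripts with a mean count of at least 50, from normalised counts (circles, with 95% counting intervals), from the other quantification (squares) and from deposited TPM (triangles); the grey band holds the middle 95% of protein-coding genes by counts. All 6 genes lie within the band, Malat1 changes sign with the scale (-0.31 by counts, 0.63 by TPM), and Malat1-203 lies outside the band by counts at 1.92.

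The protein genes also differed in the annotated transcripts to which their reads were assigned. Total nuclear RNA can hold RNA not yet spliced, and its part in the shares below was not tested. Sfpq (chr4:127021324-127037013, plus strand), a splicing factor that binds Neat1 directly, had 3023 and 3397 counts in replicates 1 and 2. Transcripts not annotated as protein-coding held 57.2% and 55.9% of its TPM but 20.8% and 19.6% of its counts. They were Sfpq-204 (20.6% and 19.6% of TPM), Sfpq-206 (mean 19.6%), Sfpq-205 (9.39% and 9.83%) and Sfpq-202 (6.69% and 6.83%), with under 1% on Sfpq-203. Each is labelled a processed transcript, and these 4 carry 497, 216, 387 and 355 bases, in that order, that no coding transcript of the gene holds. The single coding transcript Sfpq-201 had 18.6 and 30.3 TPM.

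Nono (chrX:101429318-101448591, plus strand), an RNA-binding protein that also acts in transcription, had 2851 and 2022 counts. Transcripts annotated with a retained intron held 39.5% and 38.3% of its TPM and 19.4% and 18.6% of its counts. Nono-205 (13.0% and 12.8% of TPM), Nono-202 (12.9% and 9.42%) and Nono-204 (9.67% and 13.0%) carried most of this. The coding Nono-201 had 24.6 and 25.3 TPM, and a log2 ratio of -0.20 by normalised counts. Pspc1 (chr14:56720710-56778316, minus strand), the third of the DBHS proteins, had 876 and 883 counts. Its retained-intron transcript Pspc1-203 took 20.8% and 14.3% of TPM on only 28.1 and 16.7 counts, and Pspc1-204, annotated for nonsense-mediated decay, took 20.2% and 17.2% on 33.6 and 24.9 counts. With so few counts these shares are loose, and by counts such transcripts held 7.04% and 4.71% of the gene.

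Over the 7809 detected protein-coding genes that have both kinds of transcript, the median share of TPM on transcripts not annotated as protein-coding was 30.8% in replicate 1 and 31.3% in replicate 2. Sfpq lay above 82.9% and 79.5% of these genes, Nono above 64.9% and 60.9%, and Pspc1 above 64.7% and 50.2%. By counts the median was 16.2% and 16.8%, and Sfpq lay above only 56.5% and 54.1%, Nono above 54.8% and 52.6%, and Pspc1 above 31.9% and 26.3%. The high place of Sfpq on the TPM scale thus does not carry over to counts. In the other quantification the TPM share was 60.3% and 58.9% for Sfpq, 48.7% and 47.2% for Nono, and 46.1% and 33.997% for Pspc1, against medians of 43.8% and 42.8%, so Pspc1 lay below the median in replicate 2.

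**Figure D5:**
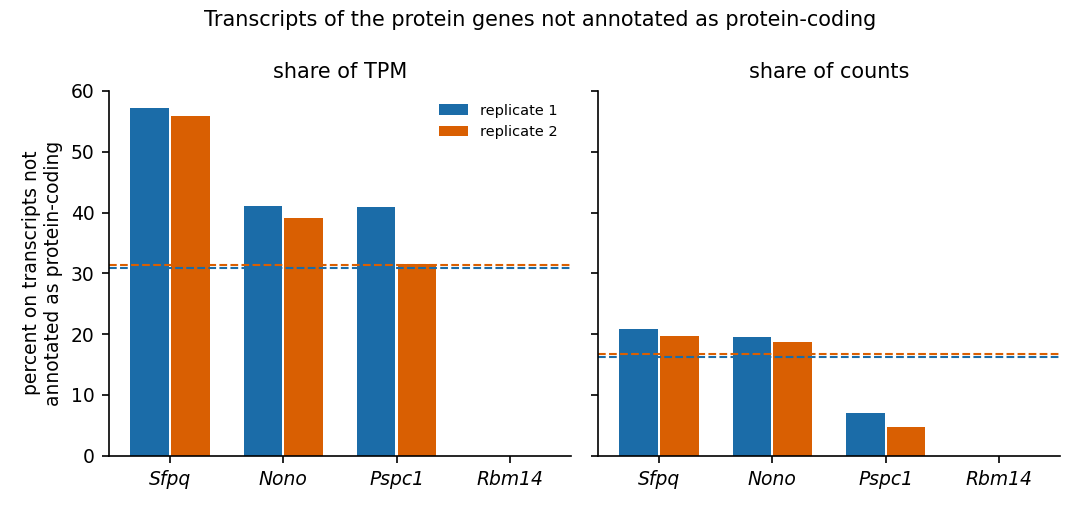
Percent of each protein gene's TPM (left) and counts (right) on transcripts not annotated as protein-coding, in replicates 1 and 2; dashed lines mark the medians over 7809 detected protein-coding genes. Sfpq reaches 57.2% and 55.9% of TPM but 20.8% and 19.6% of counts, and Rbm14 has no such transcript annotated.

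Rbm14 (chr19:4800569-4811634, minus strand), a coactivator with a prion-like domain, had 721 and 662 counts and is annotated with coding transcripts alone. Rbm14-201 took 47.3% and 56.4% of its TPM and Rbm14-202 52.7% and 43.6%, so the leading transcript differed between libraries, while Rbm14-203 was listed at 0. Rbm14 shares its span with Gm21992, a protein-coding entry of the same strand (chr19:4742913-4811612) with 258 and 225 counts, and with the antisense Gm21844, with 0 counts in each library in the first quantification and 109 and 91.9 in the other. Sfpq shares 3283 bases of its span with Gm12940, a noncoding entry of the same strand with 122 and 170 counts. Counts divided between such overlapping entries are uncertain.

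RNA of most listed genes for other paraspeckle proteins was detected as well. Of 29 other genes whose proteins are found in paraspeckles, 26 were detected, against 42.9% of all protein-coding genes, with a median of 20.6 TPM in replicate 1 and 23.4 TPM in replicate 2 against 7.30 and 8.56 TPM over detected protein-coding genes. Among the highest were Ewsr1 (116 and 120 TPM), Hnrnph1 (75.2 and 120 TPM) and Hnrnpk (75.2 and 110 TPM). EWSR1 is an RNA-binding protein, and HNRNPH1 and HNRNPK bind pre-mRNA. Ahdc1 (mean 1.19 TPM, but 0.87 in replicate 2), Celf6 (0.12 and 0 TPM) and Fign (0 counts in each library) were not detected. None of the 27 with a mean count of at least 50 was past 2-fold between libraries, and 14 had a ratio above 0, with a median log2 ratio of 0.06; over all genes tested 4.04% were past 2-fold, 50.4% had a ratio above 0 and the median was 0.00. Sfpq and Nono lay above the median of this list, and Pspc1 and Rbm14 below it.

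Of the 14 listed genes for proteins of nuclear speckles, the bodies that Malat1 gathers at, all were detected, against 42.9% of protein-coding genes. Their medians were 44.3 and 52.8 TPM in replicates 1 and 2. Srsf5 (164 and 213 TPM), Son (128 and 168 TPM), Srsf2 (108 and 149 TPM) and Srrm2 (110 and 128 TPM) led them. SRSF2 and SRSF5 are splicing factors, and SON and SRRM2 form the core of the speckle. None was past 2-fold between libraries, against 4.04% of all genes tested, and 12 of 14 had a ratio above 0 (median log2 ratio 0.11), against 50.4% of all genes tested (median 0.00).

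Genes that make or shape the ends of Malat1 and Neat1 were all detected, 8 of 8, against 42.9% of protein-coding genes. Rpph1 is a ribozyme and not of that class, and Hnrnpk, Cpsf6 and Nudt21 are also among the other paraspeckle genes above. Rpph1, the RNA of RNase P, had 70261 and 113735 TPM, and the protein-coding genes on the list were much lower. CPSF6 and NUDT21 form the factor that favours the poly(A) site of short Neat1, and HNRNPK opposes it. Cpsf6 had 28.6 and 31.9 TPM, Nudt21 2.13 and 1.54 TPM and Hnrnpk 75.2 and 110 TPM. Drosha, the microRNA-processing enzyme, had 9.33 and 9.24 TPM, and none of the 8 was past 2-fold, against 4.04% of all genes tested.

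In human cells NEAT1 also joins HEXIM1 and DNA-PK subunits in a complex that takes part in sensing foreign DNA. Of the 5 listed genes of this complex, 4 were detected, against 42.9% of protein-coding genes, but only 1 at a threshold of 5 TPM. The 4 were Hexim1 (13.5 and 14.8 TPM), Cgas (4.87 and 4.10 TPM), Prkdc (2.13 and 4.06 TPM) and Xrcc6 (2.44 and 2.84 TPM). Xrcc5 had 1 and 0 counts. None of the 4 was past 2-fold, against that same 4.04%, although Prkdc had a log2 ratio of 0.76. Paraspeckles also hold edited RNA in the nucleus, such as a long form of Slc7a2 RNA. Adar, an RNA-editing enzyme, had 69.6 and 60.7 TPM, whereas the related Adarb1 had 13 counts in each library and was not detected. Slc7a2 was not detected either (0.75 and 0.32 TPM), and at 112 and 35 counts it was past 2-fold, with a log2 ratio of -1.39.

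Against a list of other long noncoding RNAs, Malat1 and Neat1 as whole genes stood far higher per length. Of 10 listed, 9 were matched by symbol, and 6 of the 9 were detected, against 3.69% of lincRNA genes. Of the detected, only Xist and Pvt1 are annotated as lincRNA, so lincRNA shares are those of an unlike class. Xist had 70.9 and 97.7 TPM in replicates 1 and 2, Gas5 54.2 and 72.2 TPM, Tug1 41.1 and 46.9 TPM and Firre 16.9 and 30.2 TPM. Meg3 and Miat had 0 counts in each library and Snhg11 had 4 and 11. The detected 6 all had ratios above 0, against 50.4% of all genes tested and 44.3% of the 230 lincRNA genes at the same mean count. Their median log2 ratio was 0.20, against 0.00 over all genes tested. None was past 2-fold, against 4.04% of all genes tested. Neat1, at 756 and 951 TPM, thus had both libraries above both libraries of Xist, the highest of this list. Its long transcript Neat1-201 alone, at 48.2 and 53.6 TPM, had both libraries below both of Xist.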

How the data were processed

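Per the file headers, the authors' deposited gene and transcript tables give an expected count (an estimated number of reads), a TPM and, for transcripts, the percent of the gene's TPM on each transcript. They were derived from a transcriptome alignment to mm10 with GENCODE M21, per the deposited file descriptions; a second deposited table of estimated counts and TPM came directly from reads and an index. Not given in the sources used here are aligner, quantifier, versions and strandedness. The authors scaled TPM over every entry, so a few abundant short RNAs move it for all genes.

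Gene names, positions and transcript sequences came from GENCODE M21 (mm10). Entries that name no gene (1.06% and 0.245% of expected counts in replicates 1 and 2) were left out of totals. Members were found by symbol in the table made directly from reads and joined by gene identifier. Log2 ratios used expected counts rounded to whole numbers plus 0.5, normalised by edgeR 4.0.16 TMM factors (0.945 and 1.06) over genes averaging at least 10 counts; calls past 2-fold needed an average of at least 50. The calculation of the ratios was tested on simulated data with known changes. Their spread was set in advance, so this says nothing of the spread between these 2 libraries. With 2 libraries of 1 condition, no test between groups was made. DESeq2 1.42.0 size factors, total counts, TPM, the other quantification, other thresholds and pseudocounts, and each library alone were alternatives.

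The members and gene lists were chosen with earlier results of these data known. Named genes were the 6 members, entries overlapping them, coding neighbours of Malat1 and Neat1, the 5 highest lincRNA genes by TPM and by count, the neighbours in level of the protein genes, and of each list the 4 highest, undetected members where at most 6 were undetected, and those past 2-fold. Some genes that this rule names are not reported here. No replicate was pooled or left out.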

Additional observations from a re-analysis of the deposited data

How the results depend on the processing

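All 6 genes remained detected at each threshold tried and with either library alone, none was past 2-fold under any scaling tried, and their order was the same by TPM, posterior mean TPM, counts and the other quantification. Each main value is a mean of 2 libraries unless it is a ratio. Malat1 held 10.3% of gene counts (9.75% to 10.8% with either library left out), 7.97% in the other quantification and 11.8% of protein-coding and lincRNA counts. Neat1 held 0.506% (0.472% to 0.541%), 0.404% in the other quantification and 0.582% of protein-coding and lincRNA counts. Malat1 over Neat1 by TPM was 19.04 (17.1 to 20.997) and 23.2 in the other quantification. Malat1-201 had 59.6% of Malat1's TPM (44.5% to 74.7%), but 96.6% of its counts and 84.3% of its TPM with Malat1-203 left out, an alternative chosen after seeing the data. Neat1-201 had 6.00% of Neat1's TPM (5.63% to 6.37%), 5.35% in the other quantification and 32.7% of counts.

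The log2 ratio of replicate 2 over replicate 1 was -0.31 for Malat1 and 0.03 for Neat1. It was -0.14 and 0.20 by total gene counts, -0.16 and 0.18 by totals without Malat1, Rn7sk and Rpph1, -0.33 and 0.0010 in the other quantification and -0.32 and 0.018 with no minimum count for TMM. By deposited TPM it was 0.63 and 0.33, and relative to the coding median, added after seeing the data, 0.39 and 0.091. Malat1 summed with Gm37376, also added later, gave -0.30. The sign for Malat1 thus differs between counts and TPM, and the cause was not tested. The number of genes past 2-fold was 475 (124 higher and 351 lower in replicate 2) and 932 in the other quantification, which tested 17536 genes (464 higher and 468 lower). The split was 248 higher and 227 lower by total counts, 227 and 239 by totals without the 3 RNAs, and 435 and 182 by TPM. Total counts and TPM move the median of all genes by 0.17 and 0.24 on the log2 scale. No paired analysis was possible because the series holds 1 group.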
